A study of Mus musculus with 24 samples.

Results

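Chemokines are small secreted proteins that direct the movement of leukocytes, and chemokine receptors are the membrane proteins that read them. The genes described here are the protein-coding rows of the deposited expression table whose symbol belongs to the Ccl, Cxcl, Ccr, Cxcr or Ackr series followed by a digit, together with Cx3cl1, Cx3cr1, Xcl1, Xcr1 and Ccrl2. They number 68 of 54532 genes, of which 22046 are protein-coding, and carry 62 symbols. They comprised 25 ligands usually classed as inflammatory, 19 usually classed as homeostatic, 19 conventional receptors and 5 atypical receptors, which bind chemokines without the usual G protein signal. Cxcl11 is annotated in the table as a polymorphic pseudogene and so was not among them.

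Gene expression was measured by RNA sequencing in the liver and in the inguinal white adipose tissue (iWAT), a fat depot under the skin, of mice. The series concerns mitochondrial magnesium in metabolism, and Mrs2 encodes a magnesium channel of the inner mitochondrial membrane. In each tissue there were 4 groups of 3 mice: Mrs2 KO on Western diet (KO WD), wild type on Western diet (WT WD), Mrs2 KO on chow (KO chow) and wild type on chow (WT chow). Diets began at 13 weeks of age and lasted 52 weeks in every group, and lymph nodes were taken out of the iWAT. How the knockout was made, the strain and the sex are not given in the labels used here.

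Reads counted in genes ran between 14717613 and 19538975 per liver library, and between 15358324 and 20354594 per iWAT library. Levels are in FPKM, fragments per kilobase of gene length, scaled to library size. Hepatocyte genes summed to 23088 to 79330 FPKM in liver and adipocyte genes to 3595 to 5807 FPKM in iWAT, so both tissues carried their defining transcripts. Mrs2 was at 4.10, 5.21 and 4.21 FPKM in livers labelled KO on WD, against 5.10, 4.10 and 5.11 FPKM in livers labelled WT on WD. These values overlap (log2 fold change -0.07, limma adjusted p = 0.692), so the WD livers are called livers labelled KO and livers labelled WT, and names of their libraries and comparisons give the label only. In chow livers and in iWAT on both diets, every KO library was below every WT library in Mrs2. Such separation held for 4.34% of all genes in chow liver, 12.3% in WD iWAT and 727 of 14685 in chow iWAT. By limma, Mrs2 was called in WD iWAT (-0.88, limma adjusted p = 0.0234). It was not called in chow liver (-0.48, limma adjusted p = 0.863) or chow iWAT (-0.82, limma adjusted p = 0.432). Pancreatic acinar genes were high in KO chow liver 1 and WT WD liver 2, and skeletal muscle genes in KO WD liver 2, WT chow liver 3, KO WD iWAT 1 and WT WD iWAT 1. Lymphocyte genes were high in KO WD iWAT 2, KO chow iWAT 3 and WT chow iWAT 3.

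Ligands fall into the CC, CXC, CX3C and XC families by the spacing of their first cysteines, and many are held on glycosaminoglycans of tissue surfaces, where passing leukocytes meet them. Inflammatory ligands are induced in macrophages, endothelium, stroma and epithelium by signals such as TNF, interleukin-1 or interferon, while homeostatic ligands position lymphocytes and stem cells in steady state. In fatty liver and obese fat the axis of Ccl2 and its receptor Ccr2 is best known for bringing in monocytes, which become macrophages.

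The genes lie largely in clusters, with 14 rows on chromosome 11, 15 on chromosome 9 and 10 on chromosome 5. A first cluster on chromosome 11 (mm10) runs from Ccl2 (82035571 to 82037453, plus strand) through Ccl7, which starts 8258 bases further on, to Ccl11, Ccl12 and Ccl8. A second cluster there holds Ccl5, Ccl9, Ccl6, Ccl3 and Ccl4, between 83525778 and 83664683. Ccr2 lies on chromosome 9 (124101950 to 124113557).
RefSeq promoter windows (GRCm38.p6), from 250 bases before to 50 bases after a gene's start, were found for 47 of the 62 symbols. Shown are those of Cx3cl1, Ccl9 and Cxcl14, which were lower in livers labelled KO on WD, and of Cxcl1, the most abundant neutrophil attractant of the liver. Capitals mark TATAAA in Cx3cl1, the NF-kB consensus in Ccl9 and Cxcl1, and TTCNNNGAA, the GAS element read by STAT factors, in Cxcl14.
Cx3cl1, chr8:94771930-94772229, plus strand: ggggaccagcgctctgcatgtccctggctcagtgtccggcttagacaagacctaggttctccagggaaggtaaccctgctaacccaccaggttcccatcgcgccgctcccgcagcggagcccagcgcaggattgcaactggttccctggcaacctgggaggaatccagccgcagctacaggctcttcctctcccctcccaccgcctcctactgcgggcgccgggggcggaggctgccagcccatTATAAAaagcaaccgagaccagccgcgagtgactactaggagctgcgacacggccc
Ccl9, chr11:83578587-83578886, minus strand: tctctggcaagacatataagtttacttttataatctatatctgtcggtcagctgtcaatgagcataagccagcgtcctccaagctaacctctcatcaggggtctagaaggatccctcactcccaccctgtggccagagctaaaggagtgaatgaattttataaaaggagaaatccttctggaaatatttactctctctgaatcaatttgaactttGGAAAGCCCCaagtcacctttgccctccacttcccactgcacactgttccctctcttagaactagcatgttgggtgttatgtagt
Cxcl14, chr13:56296502-56296801, minus strand: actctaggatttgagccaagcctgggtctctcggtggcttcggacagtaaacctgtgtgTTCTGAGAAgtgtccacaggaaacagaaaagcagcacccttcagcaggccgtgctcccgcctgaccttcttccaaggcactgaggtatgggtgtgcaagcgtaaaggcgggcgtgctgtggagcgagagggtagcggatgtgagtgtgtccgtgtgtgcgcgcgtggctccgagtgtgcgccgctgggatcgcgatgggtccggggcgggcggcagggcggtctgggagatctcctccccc
Cxcl1, chr5:90890995-90891294, plus strand: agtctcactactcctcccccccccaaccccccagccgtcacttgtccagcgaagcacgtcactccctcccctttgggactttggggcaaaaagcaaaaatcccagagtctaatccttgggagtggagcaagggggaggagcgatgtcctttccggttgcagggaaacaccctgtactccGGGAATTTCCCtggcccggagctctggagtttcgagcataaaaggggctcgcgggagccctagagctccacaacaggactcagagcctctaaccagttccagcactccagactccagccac
Searched on both strands, the NF-kB consensus occurred in the windows of 11 symbols. It began 35 bases before the start of Ccl9 and, as overlapping matches on the 2 strands, 71 and 70 bases before the start of Cxcl1. The neighbours Cxcl2 and Cxcl3 held the same overlapping pair, 97 and 96 bases before the start of Cxcl2 and 73 and 72 bases before that of Cxcl3. Over all 32851 windows in the table, 4.51% hold this consensus. Of the symbols tested in liver, 22 had a window, and 11 of these fell in livers labelled KO on WD. The consensus lay in 1 of these 11, Ccl9, and in 6 of the 22.
TTCNNNGAA occurred in windows of 4 symbols and in 8.3% of all windows, and the interferon core GAAANNGAAA in 3 symbols and 3.44% of all windows. The AP-1 element TGANTCA occurred in 9 symbols and 7.81% of all windows, and TATAAA in 15 symbols and 13.6%. Cxcl14 was the 1 symbol with TTCNNNGAA among the 11 that fell, and among the 22 tested. TATAAA lay in 4 of the 11 and 8 of the 22. A match describes letters in a window and is not a measured binding site.

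A mean of 0.5 FPKM over the 12 libraries of a tissue was required for testing, which 29 rows reached in liver, 40 in iWAT, 28 in both tissues and 27 of the 68 in neither. Of those not tested, 9 had no read in any liver library and 4 none in any iWAT library. In liver, Ackr3 at 0.416 FPKM and Ccl21a at 0.442 FPKM lay just under the required level, and Cxcr3 at 0.547 FPKM and Ccl7 at 0.583 FPKM just over it. In iWAT, Xcr1 at 0.45 FPKM lay just under it and Cx3cr1 at 0.669 FPKM just over it. Copies of Ccl19, Ccl21a, Ccl21b, Ccl21c and Ccl27a make up 11 rows that share a symbol with another. Reads of such near-identical copies can be split among them, so the tested rows of Ccl27a and Ccl21a are uncertain.

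The abundant chemokines differed between the tissues. Liver was led by Cxcl12, which retains stem cells and lymphocytes through Cxcr4, at a mean of 65.5 FPKM over 12 libraries, by the mouse myeloid attractant Ccl9 at 25.2 FPKM and by Cxcl1 at 20.2 FPKM. These 3 made up 62.3% of the summed mean FPKM of all 68 rows. In iWAT Ccl8 at 49.8 FPKM, Ccl6 at 41.6 FPKM and the eosinophil attractant Ccl11 at 31.9 FPKM had the highest means over 12 libraries, and made up 35.2% of the sum. The order differed between groups. In livers labelled WT on WD, Ccl6 averaged 27.5 ± 12.5 FPKM, Ccl9 22.2 ± 5.68 FPKM and Cxcl1 16.1 ± 3.88 FPKM (SD, n = 3), which lie within each other's spread. In WT WD iWAT, Ccl6 averaged 74.6 ± 53.0 FPKM, Ccl11 43.6 ± 5.12 FPKM and Ccl8 42.7 ± 20.8 FPKM, and in KO chow iWAT Ccl5 averaged 33.4 ± 24.9 FPKM, second to Ccl8 at 49.9 ± 21.1 FPKM. Ccl11 reached at most 0.288 FPKM in a liver library. The deposited FPKM carry a library factor of 0.769 to 1.07 in liver and 1.24 to 1.60 in iWAT, so smaller differences between the tissues are not described.

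On WD, inflammatory ligands and leukocyte receptors were lower in livers labelled KO than in livers labelled WT. Of the 29 rows tested, 17 fell and 0 rose at an adjusted p under 0.05 (limma on log2(FPKM + 1), Benjamini-Hochberg over all genes tested). Of all genes tested, 21.0% were called in this comparison, 10.4% lower and 10.6% higher. The median log2 fold change was -1.22 over the 29 rows and 0.07 over all genes tested. By role, 10 of 14 inflammatory ligands, 6 of 6 conventional receptors, 1 of 5 homeostatic ligands and 0 of 4 atypical receptors fell. Ccl3, Ccl4, Ccl7, Ccl8, Cx3cl1, Cx3cr1 and Cxcr3 reached the level required for testing only through the livers labelled WT on WD, so a difference was built into these 7. Of the other 22 rows, 10 fell. The libraries did not overlap, KO being lower, for 21 of the 29 rows and for 17.5% of all genes tested, and KO being higher, for 3 rows and 25.4% of all genes. In bulk tissue, fewer cells of a type and less RNA per cell cannot be told apart.

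Summed over the 25 inflammatory ligands, the level was 32.1, 47.6 and 31.6 FPKM in livers labelled KO, against 131.1, 99.9 and 159.5 FPKM in livers labelled WT on WD. Summed over the 19 conventional receptors, it was 3.18, 4.46 and 3.92 FPKM in livers labelled KO, against 28.9, 14.6 and 22.7 FPKM in livers labelled WT on WD. Neither pair of groups overlaps. The homeostatic ligands summed to 62.5, 74.5 and 62.6 FPKM in livers labelled KO, against 71.4, 54.9 and 89.8 FPKM in livers labelled WT on WD, which do overlap. On chow the inflammatory ligands summed to 131.6, 44.2 and 66.4 FPKM in KO livers and 106.3, 119 and 68.7 FPKM in WT livers. For these ligands the sums of livers labelled WT overlap between the diets.

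In the first cluster the monocyte attractants Ccl2 and Ccl7 fell, and so did Ccl8, while Ccl11 and Ccl12 were under the level required for testing. Ccl2 was at 0.209, 1.03 and 0.898 FPKM in livers labelled KO, against 7.44, 6.59 and 7.28 FPKM in livers labelled WT on WD. The groups lie far apart, with a ratio of mean FPKM of 9.96 for livers labelled WT over livers labelled KO. On the log2 scale Ccl2 fell by 2.28 ± 0.25 (SE, n = 3 each, limma adjusted p = 0.000945).
Ccl8 was at 0.311, 0 and 0.167 FPKM in livers labelled KO, against 1.95, 2.06 and 9.56 FPKM in livers labelled WT on WD. One library labelled WT was far above the others, and the groups do not overlap. The gene was tested only through the livers labelled WT on WD, so a difference was built in. Ccl8 fell by 1.99 ± 0.46 (limma adjusted p = 0.0151), and without the libraries high in muscle genes its adjusted p was 0.0588.
Ccl7, which also binds Ccr2 and was tested only through the livers labelled WT on WD, fell by 0.98 ± 0.28 (limma adjusted p = 0.0341). That call was lost in 12 of 16 alternatives, among them without KO WD replicate 1 (limma adjusted p = 0.109), KO WD replicate 3 (0.0921), WT WD replicate 2 (0.0749) or WT WD replicate 3 (0.119).

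All 5 ligands of the second cluster fell. Ccl5, an attractant of T cells, natural killer cells and macrophages, was at 0.0826, 0.918 and 1.06 FPKM in livers labelled KO, against 5.12, 7.94 and 16.3 FPKM in livers labelled WT on WD. The groups do not overlap, and its fall of 2.60 ± 0.55 on the log2(FPKM + 1) scale was the largest among the 29 rows (limma adjusted p = 0.0102). By ratio of mean FPKM, livers labelled WT over livers labelled KO, Ccl8 at 28.4 and Cxcl13 at 19.2 exceeded Ccl5 at 14.2. Ccl3 and Ccl4 are products of activated macrophages and lymphocytes that draw leukocytes to inflamed tissue.
Ccl3 was at 0.207, 0.384 and 0.333 FPKM in livers labelled KO, against 2.28, 2.02 and 3.96 FPKM in livers labelled WT on WD, and fell by 1.49 ± 0.19 (limma adjusted p = 0.0015). Ccl4 was at 0.240, 0.779 and 0.774 FPKM in livers labelled KO, against 2.83, 2.06 and 5.06 FPKM in livers labelled WT on WD, and fell by 1.39 ± 0.24 (limma adjusted p = 0.0046). In both genes all libraries labelled KO were below 1 FPKM and all labelled WT above 2 FPKM. Both were tested only through the livers labelled WT on WD, so a difference was built in.
Ccl6 and Ccl9, mouse ligands of Ccr1, were the abundant members. Ccl6 was at 4.91, 12.3 and 7.40 FPKM in livers labelled KO, against 30.3, 13.8 and 38.3 FPKM in livers labelled WT on WD. The groups came close, the highest library labelled KO lying just under the lowest labelled WT. Ccl6 fell by 1.60 ± 0.40 (limma adjusted p = 0.0187), a call lost without KO WD replicate 1 (limma adjusted p = 0.0719) or 3 (0.0554) and without WT WD replicate 1 (0.0746) or 3 (0.0686).
Ccl9 was at 11.2, 10.7 and 6.40 FPKM in livers labelled KO, against 28.7, 19.8 and 18.1 FPKM in livers labelled WT on WD. The groups do not overlap. Ccl9 fell by 1.16 ± 0.29 (limma adjusted p = 0.0201), a call lost without KO WD replicate 3 (limma adjusted p = 0.0725) or WT WD replicate 1 (0.0849).

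Both membrane-bound ligands fell, and so did their receptors. Cx3cl1, fractalkine, was at 0.162, 0.430 and 0.217 FPKM in livers labelled KO, against 2.63, 1.78 and 1.81 FPKM in livers labelled WT on WD, and fell by 1.27 ± 0.14 (limma adjusted p = 0.000945). Cx3cr1, its receptor on monocytes and macrophages, was at 0.211, 0.408 and 0.359 FPKM in livers labelled KO, against 6.77, 2.71 and 3.66 FPKM in livers labelled WT on WD. It fell by 1.95 ± 0.24 (limma adjusted p = 0.00147). For both genes the lowest library labelled WT was well above the highest labelled KO. Cx3cl1 and Cx3cr1 were tested only through the livers labelled WT on WD, so a difference was built in.
Cxcl16, which draws Cxcr6-bearing T cells, was at 2.92, 3.74 and 2.08 FPKM in livers labelled KO, against 15.4, 7.53 and 16.5 FPKM in livers labelled WT on WD. The groups do not overlap, and Cxcl16 fell by 1.81 ± 0.31 (limma adjusted p = 0.0046). It shares 18.3% of its exonic bases with Zmynd15 on the opposite strand, which was at 1.08, 1.35 and 1.33 FPKM in livers labelled KO, against 4.05, 2.07 and 4.12 FPKM in livers labelled WT on WD. No source used here says whether counting used strand, so reads of the shared bases cannot be told apart.

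**Figure D1:**
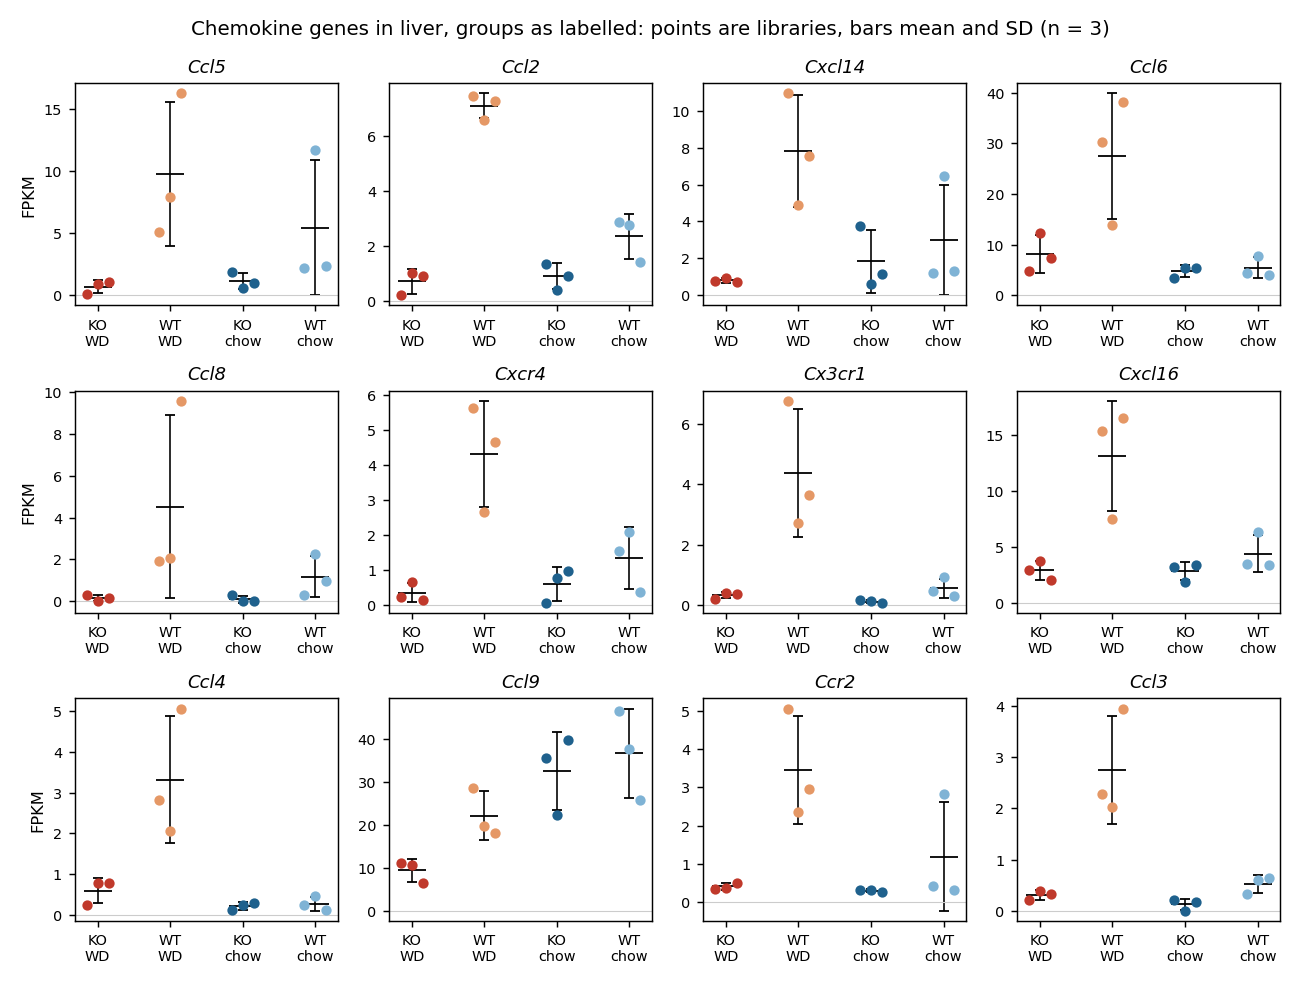
FPKM of 12 chemokine and receptor genes in each liver library, with KO WD, WT WD, KO chow and WT chow livers from left to right; points are libraries and bars give the mean and SD of 3 libraries. Ccl2 lay between 0.209 and 1.03 FPKM in livers labelled KO on WD and between 6.59 and 7.44 FPKM in livers labelled WT on WD, while Ccl9 had its highest value, 46.7 FPKM, in a WT chow liver.

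Receptors of monocytes, macrophages and lymphocytes fell with the ligands. Cxcr4, the receptor of Cxcl12, was at 0.219, 0.650 and 0.141 FPKM in livers labelled KO, against 5.61, 2.64 and 4.65 FPKM in livers labelled WT on WD, and fell by 1.96 ± 0.35 (limma adjusted p = 0.00541). Ccr2, the monocyte receptor of Ccl2 and Ccl7, was at 0.352, 0.380 and 0.516 FPKM in livers labelled KO, against 5.05, 2.36 and 2.95 FPKM in livers labelled WT on WD. The libraries of the groups do not overlap in either gene. Ccr2 fell by 1.61 ± 0.36 (limma adjusted p = 0.0122), and without WT WD replicate 1 its adjusted p was 0.0544.
The receptors of activated T cells were less secure. Cxcr6 fell by 1.07 ± 0.30 (limma adjusted p = 0.0302) and Cxcr3 by 0.74 ± 0.21 (limma adjusted p = 0.0352). Of these, Cxcr3 was tested only through the livers labelled WT on WD. The Cxcr6 call was lost in 9 of 16 alternatives and the Cxcr3 call in 10 of 16. For both these included leaving out any KO WD replicate or WT WD replicate 1 or 3, with adjusted p up to 0.106 for Cxcr6 and 0.121 for Cxcr3.

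Homeostatic ligands were divided. Cxcl14, an epithelial and stromal ligand, was at 0.738, 0.925 and 0.699 FPKM in livers labelled KO, against 11, 4.88 and 7.58 FPKM in livers labelled WT on WD. The groups do not overlap, and Cxcl14 fell by 2.24 ± 0.51 (limma adjusted p = 0.0134), with an adjusted p of 0.0589 without WT WD replicate 1. Cxcl12 was at 57.9, 69.1 and 58.3 FPKM in livers labelled KO, against 55.4, 47.7 and 50.8 FPKM in livers labelled WT on WD. Its log2 fold change of 0.26 ± 0.11 was not called (limma adjusted p = 0.117) and was -0.03 after quantile normalization. Cxcl13, the B cell attractant, was at 0.621, 0.575 and 0.296 FPKM in livers labelled KO, against 0.704, 0.593 and 27.4 FPKM in livers labelled WT on WD. One library labelled WT held nearly all of it, and the log2 fold change of -1.51 ± 0.95 was not called by limma (adjusted p = 0.292), while DESeq2 gave -4.35 (adjusted p = 0.00585).

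Other inflammatory ligands did not pass the test. Cxcl9, an interferon-induced ligand of Cxcr3, was at 2.29, 2.78 and 2.57 FPKM in livers labelled KO, against 6.79, 14.2 and 12.8 FPKM in livers labelled WT on WD, with a log2 fold change of -1.73 ± 0.57 (limma adjusted p = 0.0565). Cxcl10, which shares that receptor, stood at -0.89 ± 0.50 (limma adjusted p = 0.233). Cxcl1 was at 6.77, 8.78 and 6.08 FPKM in livers labelled KO, against 19.2, 11.8 and 17.3 FPKM in livers labelled WT on WD, with a log2 fold change of -1.05 ± 0.67 (limma adjusted p = 0.301). Neither Cxcl1 nor Cxcl9 overlapped between the groups, KO being lower, as for 17.5% of all genes tested. Fitted on the WD livers alone, both passed, with limma adjusted p of 0.0235 for Cxcl1 and 0.0141 for Cxcl9, and Cxcl1 also passed without the libraries high in acinar genes (0.0225). Among the 4 atypical receptors tested, which clear or present chemokines, Ccrl2 stood at -0.43 ± 0.16 (limma adjusted p = 0.0824), Ackr1 at -0.18 ± 0.31 (0.721), Ackr2 at -0.12 ± 0.15 (0.602) and Ackr4 at 0.28 ± 0.13 (0.154). Ackr4, a scavenger of Ccl19 and Ccl21, was at 1.19, 0.833 and 0.680 FPKM in livers labelled KO, against 0.567, 0.472 and 0.632 FPKM in livers labelled WT on WD, without overlap, as for 25.4% of all genes with KO higher. It shares 8.90% of its exonic bases with Acad11 on the opposite strand. Ackr2 was at 0.02 after quantile normalization, and Ccrl2 passed without WT WD replicate 2 (0.0456). Ackr1 shares 25.7% of its exonic bases with Cadm3, so its level is uncertain.

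The authors' deposited table for the same comparison holds only genes with an unadjusted p under 0.05. It lists 31 of the rows, 28 of them lower in livers labelled KO at its adjusted p under 0.05 and 0 higher, while 42.3% of the 5970 genes it lists were lower by the same rule. Of these 28, 8 were under the level required for testing here, among them Ccr1, the receptor of Ccl6 and Ccl9, and Ccl12 and Cxcl5.

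Of the pathway's genes outside the family, part fell in the same livers, where 10.4% of all genes tested fell and 10.6% rose. Among 35 tested genes of chemokine signal transduction, 21 fell and 1 rose, with a median log2 fold change of -0.63. Rgs2, a brake on G protein signals, fell by 1.60 ± 0.19 (limma adjusted p = 0.00118), and Dock2, which drives leukocyte motility, by 1.41 ± 0.23 (limma adjusted p = 0.00394). Among 22 tested genes that induce chemokines, 12 fell and 0 rose, with a median of -0.53. Cd14, a sensor of bacterial lipid, fell by 2.36 ± 0.32 (limma adjusted p = 0.0019), and Relb, an NF-kB subunit, by 1.31 ± 0.16 (limma adjusted p = 0.00123). Of 8 tested relatives outside the symbol rule, the platelet chemokine Pf4 and the chemerin receptor Cmklr1 fell, and Sdc4, a proteoglycan, rose by 0.95 ± 0.16 (limma adjusted p = 0.00414).
Markers of several other cell types moved with these genes. Cd5l was the only gene called in the Kupffer cell list, at -1.20 (limma adjusted p = 0.0374). Nkg7 was the only one in the natural killer cell list, at -1.87 (limma adjusted p = 0.0126). Macrophage genes summed to 145.6 to 216.8 FPKM in livers labelled KO and 347 to 738.5 FPKM in livers labelled WT on WD, and 7 of 10 tested fell. Fibroblast genes summed to 42.4 to 47.5 FPKM in livers labelled KO and 136 to 222.2 FPKM in livers labelled WT on WD, and 8 of 8 fell. Bile duct genes summed to 17.9 to 31.8 FPKM in livers labelled KO and 147.1 to 250.8 FPKM in livers labelled WT on WD, and 4 of 4 fell. Of these Spp1 fell by 3.04 on the log2 scale, and Epcam, Sox9 and Krt19 by 1.32, 1.08 and 0.77, so the sum does not describe them alike. T cell genes summed to 1.83 to 2.45 FPKM in livers labelled KO and 6.09 to 12 FPKM in livers labelled WT on WD, and 2 of 4 fell, while 4 of 7 hepatocyte genes rose. Their part in the chemokine differences was not tested.

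On chow, 0 of the 29 rows were called between KO and WT livers, as were 0 of all genes tested (percent called 0), while 675 genes and 3 of the 29 rows had an unadjusted p under 0.05. The 3 rows were Ccl2 at -0.82 ± 0.25, Ccl5 at -1.31 ± 0.55 and Ccl3 at -0.43 ± 0.19 on the log2 scale, each with a limma adjusted p of 0.863. Ccl5 was at 1.86, 0.579 and 1.01 FPKM in KO chow livers, against 2.21, 11.7 and 2.37 FPKM in WT chow livers. WT chow liver 2 was far above the other 5 libraries. The libraries did not overlap, KO being lower, for 7 of the 29 rows and for 4.34% of all genes tested. DESeq2 on the recovered reads called 1 row, Cx3cr1, at -2.29 ± 0.57 (DESeq2 adjusted p = 0.0477), and 16 of all genes (0.115%), and edgeR called 0 rows.

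In livers labelled WT, many of these genes were higher on WD than on chow. Of the 29 rows, 12 rose and 1 fell, against 19.2% of all genes tested called, 9.72% higher and 9.49% lower. The median log2 fold change was 0.69 over the 29 rows and -0.05 over all genes tested. This comparison shares the livers labelled WT on WD with the comparison of KO with WT on WD, so the 2 sets of values are not independent. Of the 7 rows tested only through those livers 5 rose, and of the other 22 rows 7 rose and 1 fell. The libraries did not overlap, WD being higher, for 12 rows and 15.2% of all genes, and WD being lower, for 2 rows and 19.2% of all genes. Calls numbered 17 rows and 2726 of 14019 genes without WT chow replicate 2, 8 rows and 1467 genes without WT WD replicate 3, and 7 rows and 1450 genes without WT chow replicate 3, against 13 rows and 2693 genes with all libraries.
Ccl6 rose by 2.07 ± 0.40 on the log2 scale (limma adjusted p = 0.00688), with 30.3, 13.8 and 38.3 FPKM in livers labelled WT on WD, against 4.49, 7.86 and 4.07 FPKM in WT chow livers. Cx3cr1 rose by 1.74 ± 0.24 (limma adjusted p = 0.0017), with 6.77, 2.71 and 3.66 FPKM in livers labelled WT on WD, against 0.470, 0.919 and 0.288 FPKM in WT chow livers. Neither gene's groups overlap. Cx3cr1, and Ccl4, Ccl3, Cx3cl1 and Ccl7 below, were tested only through the livers labelled WT on WD, so a rise was built in.
Ccl4 rose by 1.71 ± 0.24 (limma adjusted p = 0.00178), Ccl3 by 1.28 ± 0.19 (0.002), Ccl2 by 1.30 ± 0.25 (0.00704) and Cx3cl1 by 1.13 ± 0.14 (0.00112). Among them Ccl2 was at 7.44, 6.59 and 7.28 FPKM in livers labelled WT on WD, against 2.86, 2.76 and 1.43 FPKM in WT chow livers, again without overlap. Cxcl16 rose by 1.36 ± 0.31 (0.0141) and the atypical receptor Ccrl2 by 0.62 ± 0.16 (0.0233). Both calls were lost without WT WD replicate 1 or 3 or WT chow replicate 3, with adjusted p of 0.0566 to 0.0861.
Ccl7 (1.0 ± 0.28, limma adjusted p = 0.0339), Cxcr4 (1.23 ± 0.35, 0.0343) and Ccr2 (1.16 ± 0.36, 0.046) passed narrowly, and each lost its call in 10 or more of 16 alternatives. Ccr2 was at 5.05, 2.36 and 2.95 FPKM in livers labelled WT on WD, against 0.434, 2.82 and 0.324 FPKM in WT chow livers, so the groups overlap through WT chow liver 2. The same library held 11.7 FPKM of Ccl5, 20.1 FPKM of Cxcl9 and 6.46 FPKM of Cxcl14, the highest WT chow value of each. Ccl5 stood at 0.93 ± 0.55 (limma adjusted p = 0.269), Cxcl14 at 1.33 ± 0.51 (0.0937) and Cxcl9 at 0.69 ± 0.57 (0.439), and without WT chow replicate 2 all 3 were called, at 1.58, 1.91 and 1.46.
Cxcl12 was the row that fell. It was at 55.4, 47.7 and 50.8 FPKM in livers labelled WT on WD, against 70.1, 62.9 and 78.7 FPKM in WT chow livers, without overlap. Its log2 fold change was -0.45 ± 0.11 (limma adjusted p = 0.0182) and -0.19 after quantile normalization (0.299), and it also missed the threshold without WT WD replicate 3 (0.0601) or WT chow replicate 3 (0.0669). Among cell markers, 8 of 10 macrophage genes and 8 of 8 fibroblast genes rose and 6 of 7 hepatocyte genes fell with WD in livers labelled WT, and their part in these values was not tested.

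**Figure D2:**
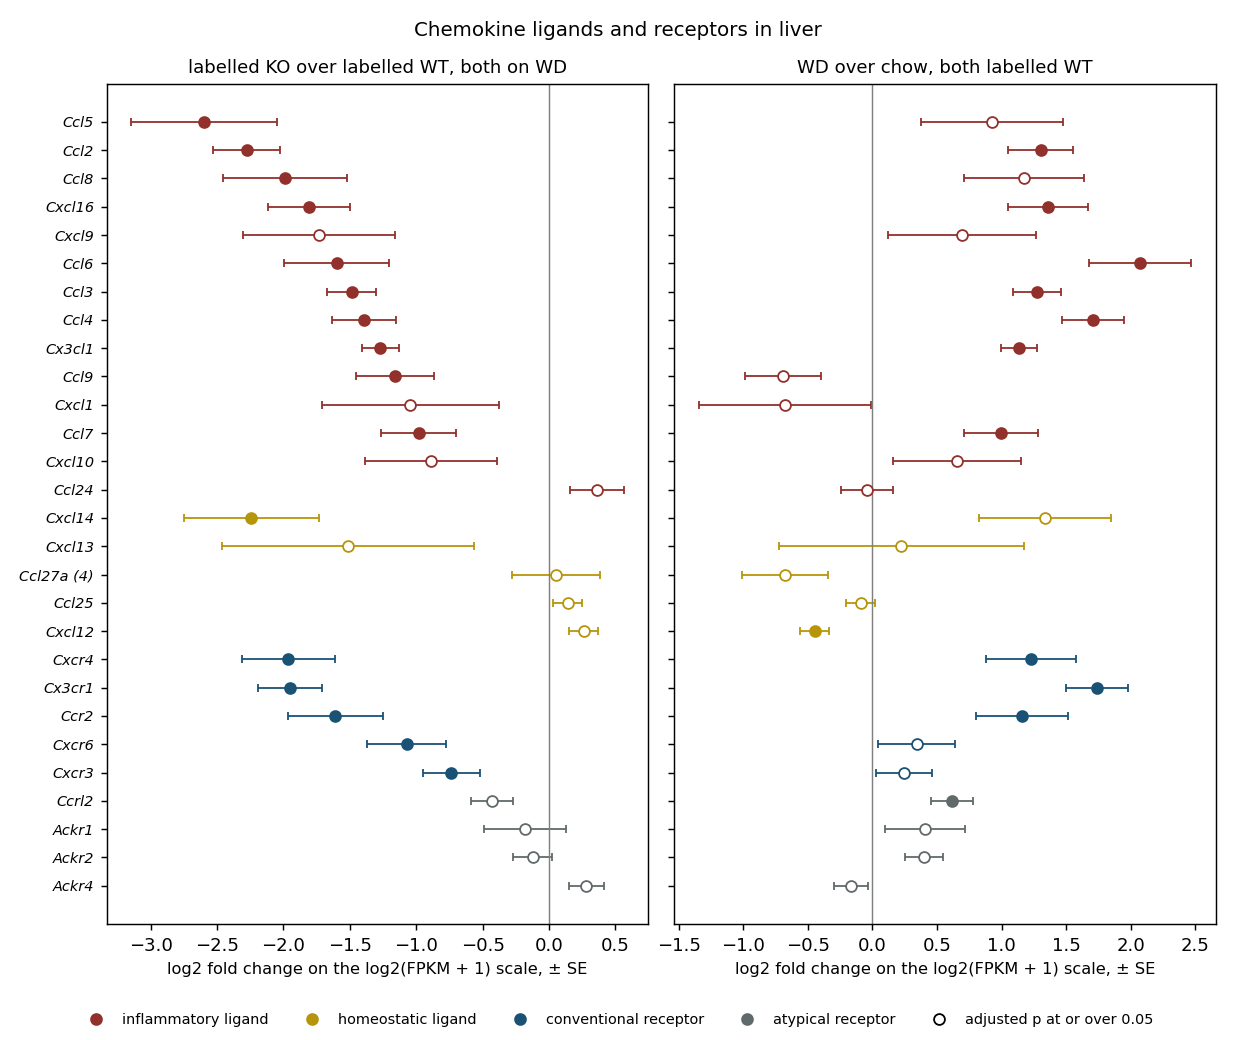
Log2 fold changes with SE of 28 of the 29 rows tested in liver, ordered by role, for livers labelled KO over livers labelled WT on WD (left) and WD over chow in livers labelled WT (right); open points have a limma adjusted p of 0.05 or more. Points lie mostly below 0 on the left, where 16 of those drawn fell, and mostly above 0 on the right, where 11 rose, and both panels use the same livers labelled WT on WD.

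In livers labelled KO the same comparison of diets gave a single call. Of the 29 rows 1 fell and 0 rose, against 0.421% of all genes tested called, 0.271% lower and 0.150% higher. Ccl9 was at 11.2, 10.7 and 6.40 FPKM in livers labelled KO on WD, against 35.6, 22.4 and 39.9 FPKM in KO chow livers, and all libraries labelled KO on WD were below all KO chow libraries, as for 5 of the 29 rows and 12.5% of all genes tested. It fell by 1.69 ± 0.29 (limma adjusted p = 0.0437), and the call was lost without KO WD replicate 1 (0.0985), 2 (0.0741) or 3 (0.155) and without KO chow replicate 1 (0.137) or 3 (0.162). In livers labelled WT, Ccl9 also averaged lower on WD than on chow, at 22.2 against 36.7 FPKM, without being called. Ccl2 stood at -0.15 ± 0.25 (limma adjusted p = 0.809), with 0.209, 1.03 and 0.898 FPKM in livers labelled KO on WD, against 1.37, 0.418 and 0.913 FPKM in KO chow livers.
The difference between the labelled genotypes in their response to diet was tested as an interaction. By limma 0 of the 29 rows passed, against 0.549% of all genes tested (0.128% higher and 0.421% lower). Cx3cl1 was nearest, at -1.07 ± 0.20 (limma adjusted p = 0.05002), and it passed with DESeq2 (adjusted p = 0.025) and with median-of-ratios scaling (limma adjusted p = 0.0476). Ccl2 stood at -1.46 ± 0.36 (limma adjusted p = 0.108). Without WT WD replicate 2, 4 rows passed (Ccl3, Ccl4, Cx3cl1 and Cx3cr1) and 330 of 14019 genes, and without WT chow replicate 2, 3 rows passed (Ccr2, Cx3cl1 and Cx3cr1) and 291 genes, against 77 genes with all libraries. Ccl3, Ccl4, Cx3cl1 and Cx3cr1 were tested only through the livers labelled WT on WD, so an interaction of this sign was built into them.

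In iWAT on WD, 2 monocyte attractants were lower and 1 receptor was higher in KO mice. Of the 40 rows tested, 2 fell and 1 rose, against 4.25% of all genes tested called, 1.05% lower and 3.20% higher. The median log2 fold change was -0.09 over the 40 rows and -0.02 over all genes tested. The libraries did not overlap, KO being lower, for 8 rows and 12.3% of all genes, and KO being higher, for 2 rows and 12.7% of all genes. Ccl2 was at 4.92, 3.21 and 3.80 FPKM in KO WD iWAT, against 7.88, 28.8 and 24.8 FPKM in WT WD iWAT, and fell by 1.94 ± 0.44 (limma adjusted p = 0.0398). Ccl7 was at 4.53, 5.36 and 4.80 FPKM in KO WD iWAT, against 10.8, 20.1 and 25.6 FPKM in WT WD iWAT, and fell by 1.67 ± 0.37 (limma adjusted p = 0.0363). The groups do not overlap for either gene, and WT WD iWAT 1 was the lowest WT WD library for both. Ccr10, a receptor for Ccl27 and Ccl28, was at 2.10, 2.23 and 1.55 FPKM in KO WD iWAT, against 0.938, 1.07 and 0.505 FPKM in WT WD iWAT, and rose by 0.69 ± 0.14 (limma adjusted p = 0.0292).
These 3 calls were fragile. Ccl2 and Ccl7 lost theirs without KO WD replicate 1, 2 or 3 or WT WD replicate 2 or 3, with adjusted p of 0.0593 to 0.156, and Ccr10 without KO WD replicate 1 (0.124) or 2 (0.119) or WT WD replicate 1 (0.055) or 3 (0.115). Without the libraries high in lymphocyte genes, Ccl2 stood at -1.83 (limma adjusted p = 0.169), Ccl7 at -1.73 (0.0948) and Ccr10 at 0.63 (0.129), and without those high in muscle genes at -2.62 (0.0726), -1.96 (0.139) and 0.70 (0.157). Over all genes, calls numbered 15 and 4 in these settings, against 624 with all libraries.
DESeq2 on the recovered reads called 7 rows in this comparison, and 9.94% of all genes. The authors' deposited table lists 19 rows, 7 lower and 2 higher in KO at its adjusted p under 0.05, and of the 3117 genes it lists 13.9% were lower and 27.2% higher. In the authors' deposited table Ccl2 was at -2.34 (adjusted p = 2.05e-05), Ccl7 at -1.92 (4.41e-06), Ccr10 at 1.25 (0.0362), Ccl11 at -0.72 (0.0068) and Cxcl9 at 0.63 (0.0215). Here Ccl11 was at 20.4, 26.6 and 30.8 FPKM in KO WD iWAT, against 42.3, 39.3 and 49.3 FPKM in WT WD iWAT, without overlap, and stood at -0.74 ± 0.22 (limma adjusted p = 0.0981). Cxcl9 was at 9.61, 12.6 and 12.9 FPKM in KO WD iWAT, against 8.98, 6.96 and 7.05 FPKM in WT WD iWAT, also without overlap, and stood at 0.55 ± 0.21 (limma adjusted p = 0.202). Of all genes tested, 12.3% did not overlap with KO lower and 12.7% with KO higher.
The monocyte receptor Ccr2 (-0.68 ± 0.26, limma adjusted p = 0.185) and the scavenger Ackr2 (-0.46 ± 0.13, 0.0736) were lower in every KO WD library than in any WT WD library without passing. Such separation held for 12.3% of all genes tested. Cxcl1, which was tested only through the WT WD libraries, stood at -0.95 ± 0.33 (limma adjusted p = 0.145), and without WT WD replicate 1 Cxcl1 passed (0.0159). Macrophage genes summed to 312.8 to 347.4 FPKM in KO WD iWAT and 384.2 to 654.8 FPKM in WT WD iWAT, with 0 of 11 called. Red cell genes summed to 691.2 to 1805 FPKM in KO WD iWAT and 1800 to 7727 FPKM in WT WD iWAT, and muscle genes to 22.8 to 1159 FPKM in KO WD iWAT and 153.1 to 3744 FPKM in WT WD iWAT. Their part in the chemokine values was not tested. Of 39 tested signal transduction genes 0 were called, and the platelet chemokine Ppbp fell by 1.73 ± 0.27 (limma adjusted p = 0.0187).

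The same 3 genes were called between WD and chow in WT iWAT, a comparison that shares the WT WD libraries. There 2 rows rose and 1 fell of 40, against 2.12% of all genes tested called, 1.36% higher and 0.769% lower. Ccl2 was at 7.88, 28.8 and 24.8 FPKM in WT WD iWAT, against 3.22, 2.72 and 1.77 FPKM in WT chow iWAT, and rose by 2.43 ± 0.44 (limma adjusted p = 0.0279). Ccl7 was at 10.8, 20.1 and 25.6 FPKM in WT WD iWAT, against 5.96, 4.36 and 2.37 FPKM in WT chow iWAT, and rose by 1.91 ± 0.37 (limma adjusted p = 0.0335). Ccr10 was at 0.938, 1.07 and 0.505 FPKM in WT WD iWAT, against 2.30, 2.33 and 2.22 FPKM in WT chow iWAT, and fell by 0.85 ± 0.14 (limma adjusted p = 0.0215). None of the 3 overlaps between the groups, as held for 6 rows and 15.5% of all genes with WD higher, and for 5 rows and 11.8% of all genes with WD lower.
Calls numbered 6 rows and 287 of 14685 genes without WT WD replicate 1, and 1 row and 137 genes without WT chow replicate 1. They numbered 0 rows without WT WD replicate 2 or 3, with 31 and 22 genes, and 0 rows without WT chow replicate 2 or 3, with 38 and 84 genes, against 312 genes with all libraries. Cxcl9 stood at -0.74 ± 0.21 (limma adjusted p = 0.0967), without overlap between the groups. Red cell genes summed to 1800 to 7727 FPKM in WT WD iWAT and 959.2 to 1402 FPKM in WT chow iWAT. In the same order, muscle genes summed to 153.1 to 3744 and 31.8 to 139.5 FPKM, and macrophage genes to 384.2 to 654.8 and 253.3 to 347.6 FPKM. Plasma cell genes went the other way, with 8.07 to 37.5 and 56.5 to 95.5 FPKM. Their part in the chemokine values was not tested.

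**Figure D3:**
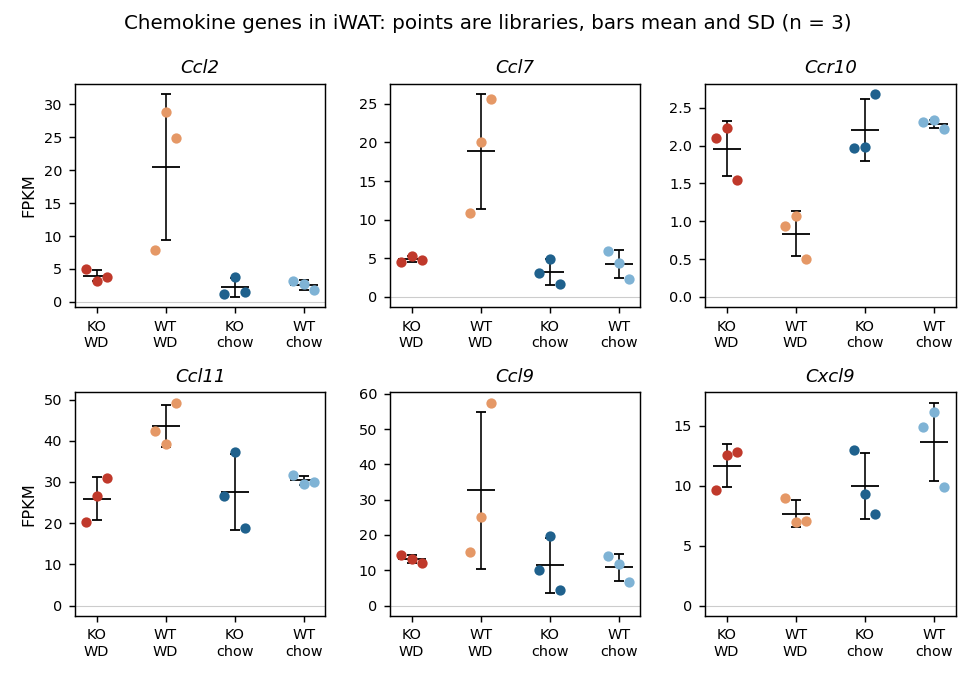
FPKM of Ccl2, Ccl7, Ccr10, Ccl11, Ccl9 and Cxcl9 in each iWAT library, with KO WD, WT WD, KO chow and WT chow from left to right; points are libraries and bars give the mean and SD of 3 libraries. Ccl2 and Ccl7 were highest in WT WD iWAT, at 7.88 to 28.8 FPKM and 10.8 to 25.6 FPKM, and Ccr10 was lowest there, at 0.505 to 1.07 FPKM.

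On chow, 0 of 40 rows were called between KO and WT iWAT by limma, edgeR or DESeq2, as were 0 of all genes tested by limma (percent called 0), with 830 genes and 1 row, Ackr2 at -0.34 ± 0.13, at an unadjusted p under 0.05. DESeq2 called 70 of 14624 genes there. Between WD and chow in KO iWAT 0 of 40 rows and 0 genes were called by limma, with 1390 genes and 0 rows at an unadjusted p under 0.05. Ccl2 was at 4.92, 3.21 and 3.80 FPKM in KO WD iWAT, against 1.25, 3.85 and 1.49 FPKM in KO chow iWAT, which overlap, with a log2 fold change of 0.71 ± 0.44 (limma adjusted p = 0.639). The interaction of genotype and diet in iWAT gave 0 calls among the 40 rows by limma, edgeR or DESeq2. Over all genes, DESeq2 called 46 of 14624, and limma and edgeR called 0. By limma, 1011 genes and 4 rows had an unadjusted p under 0.05. The 4 were Ccr10 (0.74 ± 0.20), Cxcl9 (0.97 ± 0.30), Ccl2 (-1.72 ± 0.62) and Ccl7 (-1.35 ± 0.52), with limma adjusted p of 0.576 to 0.668.

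Several lymphoid chemokines and receptors of iWAT were highest in 3 libraries that belong to 3 different groups. In 10 of the 40 rows, the 3 libraries high in lymphocyte genes (KO WD 2, KO chow 3 and WT chow 3) were the 3 highest of 12, which held for 5.37% of all genes tested. These rows were Ccr6, Ccr7, Cxcr3, Cxcr4, Cxcr5, Cxcr6, Ccl5, Ccl17, Ccl22 and Cxcl16. Ccr7, which guides T cells and dendritic cells into lymph nodes, was at 13.1 to 21.4 FPKM in the 3 libraries and 0.464 to 8.23 FPKM, with a median of 1.55, in the other 9. Ccl5 was at 53.7 to 60.1 FPKM in the 3 libraries and 3.51 to 29.2 FPKM in the other 9. Within WD, Ccr7 was at 3.70, 13.1 and 0.464 FPKM in KO iWAT, against 1.55, 0.555 and 0.857 FPKM in WT iWAT, which overlap, with a log2 fold change of 1.24 ± 0.94 (limma adjusted p = 0.538).
B cell genes summed to 158.4 to 309.3 FPKM in the 3 libraries and 8.63 to 86.9 FPKM in the other 9. The 3 libraries were chosen as high in lymphocyte genes, so this difference was built in. Genes of lymph node high endothelium summed to 6.79 to 8.10 FPKM in the 3 and 0.0932 to 3.03 FPKM in the other 9. Their part in the levels of the 10 rows was not tested. Cxcl13 did not keep to this order, with 42.3 FPKM in WT WD iWAT 3, its highest library.

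**Figure D4:**
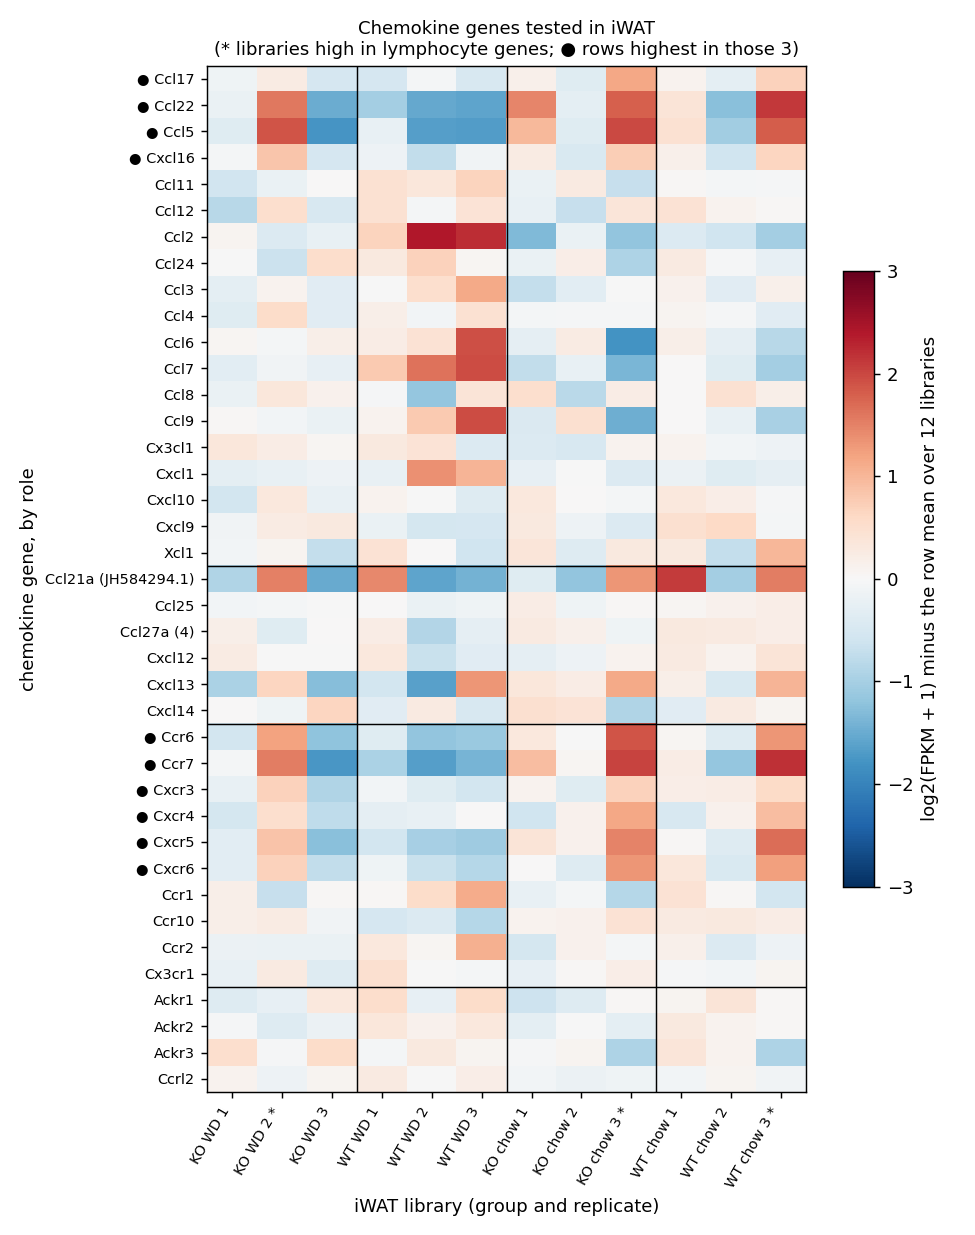
Log2(FPKM + 1) minus the row mean for 39 of the 40 rows tested in iWAT in each of 12 libraries, with KO WD, WT WD, KO chow and WT chow from left to right; stars mark the 3 libraries high in lymphocyte genes and dots the 10 rows whose 3 highest libraries are these. The marked rows are high in the starred columns, as for Ccr7 at 13.1 to 21.4 FPKM.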

How the data were processed

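The deposited table holds FPKM per gene and library made by the authors, with gene lengths; HISAT2 2.0.5, DESeq2 1.20.0 and mm10 are named in the submitters' processing notes, without roles. No source used here names the read counter or says whether counting used strand. Other tables deposited by the authors hold raw counts, log2 fold changes and p-values for genes with an unadjusted p under 0.05, from DESeq2 per the deposited readme. The low FPKM values are whole multiples of 1 read: 540911 of 540911 values above 0 gave whole reads within 0.01, and 64434 of 64434 deposited counts were equal to them. The deposited tables have 32 further columns of per-sample or per-group values that were not used.

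The main test was limma 3.58.1 (R 4.3.3) on log2(FPKM + 1) with trended, robust variance, in 1 fit per tissue over 12 libraries and 4 group means. Genes with a mean of at least 0.5 FPKM in the tissue were tested, and p-values were Benjamini-Hochberg adjusted over all of them. Fold changes on this scale understate low genes. Alternatives were edgeR 4.0.16 quasi-likelihood and DESeq2 1.42.0 on recovered reads, other filters, scalings and pseudocounts, the compared groups alone, a replicate block and leaving out libraries. The limma step was tested on simulated data. Replicates are separate mice per the labels. Residuals of same-numbered libraries correlated above 0.1 in all 3 pairs only for KO and WT on chow in iWAT (0.184, 0.127 and 0.407). There the block called 0 of the 40 rows, as without it, and 1 of 14685 genes, against 0 without it.

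Cell markers, roles and pathway lists, like the genes themselves, were chosen with earlier results of these data known. Named are all called rows, Ccl2 everywhere and a fixed set of axis genes, except 1 gene that is not reported here by name and enters only the counts and sums. Ccl11, and Ccl8, Ccl6 and Ccl9 where named for their levels, were chosen after their values were seen. Sequences are from RefSeq (GRCm38.p6), exon overlaps from GENCODE. Figures used Python 3.11.15 and matplotlib 3.10.9.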

Additional observations from a re-analysis of the deposited data

Results flagged for a closer look

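Cxcl9 had opposite signs in the 2 tissues between libraries labelled KO and WT on WD. Its log2 fold change was -1.73 in liver, where all 3 libraries labelled KO were below all 3 labelled WT, and 0.55 in iWAT, where all 3 KO libraries were above all 3 WT libraries. Separation in the same direction held for 17.5% of all genes tested in liver and 12.7% in iWAT. In the limma fit over all 12 libraries of a tissue neither value passed (adjusted p = 0.0565 in liver and 0.202 in iWAT). The liver value passed with limma on the compared groups alone (0.0141) or with a minimum of 5 FPKM (0.0483) and with DESeq2 (adjusted p = 0.0129). The authors' deposited table calls both (adjusted p = 3.2e-12 in liver and 0.0215 in iWAT). The difference between the tissues was not tested.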

How the results depend on the processing

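Of the 17 rows called between livers labelled KO and WT on WD, 9 were called under every alternative run, among them Ccl2, Ccl3, Ccl4, Ccl5, Cx3cl1, Cx3cr1, Cxcl16 and Cxcr4, and 8 lost the call under at least 1. Of 13 called between WD and chow in livers labelled WT, 5 were called under every alternative (Ccl3, Ccl4, Ccl6, Cx3cl1 and Cx3cr1), and 0 of 3 were in either iWAT comparison. Ccl3, Ccl4, Cx3cl1 and Cx3cr1 were tested only through the livers labelled WT on WD, so both of their differences were built in. With 3 mice per group, leaving out 1 library moved many calls, and the cause was not tested.

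For KO against WT on WD in liver, 4 rows were called with a minimum of 5 FPKM, which leaves 6 to test, 14 with the replicate block and 11 to 17 when 1 replicate was left out. In the same order, 1701 of 6475 genes, 2565 of 14019 genes and 1354 to 2998 genes were called. For KO against WT on chow in liver, DESeq2 called 1 row and 16 of 13949 genes. For WD against chow in WT liver, calls numbered 3 with a minimum of 5 FPKM, 6 with the compared groups alone, 7 without the muscle-high libraries, 10 with the replicate block and 7 to 17 with 1 replicate left out. Over all genes these settings called 1606 of 6475, then 709, 1235, 2319 and 1425 to 2791 of 14019. For WD against chow in KO liver, calls numbered 0 with no filter, with the compared groups alone, with quantile normalization and without the acinar-high or muscle-high libraries, 1 with the replicate block and 0 to 1 with 1 replicate left out. Genes called were 34 of 29269 with no filter, then 43, 41, 21, 84, 39 and 24 to 53 of 14019. For the liver interaction, DESeq2 and median-of-ratios scaling called 1 each, the replicate block 0, and leaving out 1 replicate gave 0 to 4. These settings called 516 of 13949 genes, then 87, 20 and 15 to 330 of 14019 genes. For KO against WT on WD in iWAT, calls numbered 7 with DESeq2, 3 with the replicate block, 0 with no filter, with the compared groups alone and without the lymphocyte-high or muscle-high libraries, and 0 to 4 with 1 replicate left out. Genes called were 1454 of 14624 with DESeq2, 687 of 14685 with the block and 204 of 32426 with no filter. The remaining settings called 16, 15, 4 and 16 to 871 of 14685 genes. For WD against chow in WT iWAT, calls numbered 9 with DESeq2, 1 with no filter, 1 with the replicate block, 0 with the compared groups alone or without the lymphocyte-high libraries, and 0 to 6 with 1 replicate left out. Here DESeq2 called 1620 of 14624 genes, and the fit with no filter 139 of 32426. The remaining settings called 155, 95, 99 and 22 to 287 of 14685 genes. In the other 3 iWAT comparisons and for KO against WT on chow in liver the replicate block called 0 rows. Over all genes it called 1 for KO against WT on chow in iWAT and 0 in the others of these.

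Of 1691 alternative values for named genes, 35 changed sign, all of uncalled values. For KO against WT on WD in liver, quantile normalization gave -0.028 for Cxcl12 and 0.024 for Ackr2, and leaving out 1 replicate gave -0.26 to 0.050 for Ackr2 and -0.43 to 0.15 for Ackr1. For WD against chow in liver, Cxcl13 in WT was -0.055 with a pseudocount of 0.1 and -1.14 to 0.93 with 1 replicate left out, and Ccl2 in KO was 0.020 without the acinar-high libraries and -0.35 to 0.080 with 1 replicate left out. For KO against WT on WD in iWAT, Cxcr3 was -0.23 and Ccl21a (JH584294.1) -0.69 without the lymphocyte-high libraries, Cxcl10 was 0.24 without the muscle-high libraries, and Cxcr4 was 0.029 with DESeq2 and 0.022 with edgeR. With 1 replicate left out these ranged over -0.23 to 0.57 for Cxcr3, -0.69 to 1.195 for Ccl21a, -0.30 to 0.13 for Cxcl10, -0.49 to 0.14 for Cxcr4 and -0.91 to 0.56 for Cxcl13. For WD against chow in WT iWAT, without the lymphocyte-high libraries Cxcr4 was 0.0064 and Ackr3 -0.13, and without the muscle-high libraries Cx3cr1 was -0.036 and Ackr1 -0.00698. With 1 replicate left out these ranged over -0.69 to 0.0064 for Cxcr4, -0.13 to 0.52 for Ackr3, -0.036 to 0.24 for Cx3cr1, -0.026 to 0.38 for Ackr1 and -1.35 to 0.13 for Cxcl13.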
